A study of Mus musculus with 8 samples.

Results

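A set of 6 neighbouring genes of the mouse Serpina3 cluster on chromosome 12, Serpina3f, Serpina3g, Serpina3h, Serpina3i, Serpina3m and Serpina3n, were followed through 8 libraries of mouse intestinal RNA. They were taken by gene name from a table of 23282 lines of 3′ tag counts, and all 6 had a line. The 6 were selected on their measured counts in these same 8 libraries, with the differences between the 4 groups already known. Their values are therefore described here without a test, and the differences between groups are no support for anything. Wild-type C57BL/6 mice fell into 4 groups with 2 libraries in each. ExDSS mice received 1 mg of bovine colostrum exosomes, small vesicles secreted into the first milk, by gavage each day for 3 weeks and then 3% dextran sodium sulfate (DSS) in the drinking water for 6 days. DSS is a polymer that damages the gut lining and is used to induce colitis. Ex mice received the exosomes and no DSS, PC mice received phosphate buffered saline by gavage and then the same DSS, and NC mice received the saline and no DSS. The labels name the tissue only as intestinal. They give no gut segment, and nothing in them shows that the 2 libraries in a group are 2 mice. The spread within a group may be partly technical.

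Serpins inhibit proteases with an exposed loop that the protease cuts, which traps the enzyme in an inactive complex. Humans carry a single SERPINA3 gene, for the acute phase protein alpha-1-antichymotrypsin, and mice carry a row of copies that arose by local duplication. The copies differ most in the loop and so in the proteases they bind. Serpina3n inhibits granzyme B and neutrophil elastase, and Serpina3g, also called Spi2A, inhibits the cathepsins B and L. The genes are known to respond to inflammatory cytokines, among them interleukin 6 and the interferons, through factors such as STAT3.

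The libraries went against their labels in one respect that touches every result. Markers of acute inflammation were high in the libraries labelled ExDSS and NC and near 0 in those labelled PC and Ex, although PC mice were given DSS and NC mice were not. The summed level of 8 neutrophil markers was 3828 and 2323 normalised CPM (counts scaled to a common library size) in the libraries labelled ExDSS, 14.3 and 13.4 in Ex, 14.3 and 12.2 in PC, and 3099 and 2603 in NC. Groups are named below by the labels of their libraries, and no library was moved. The direction and the size of every difference that involves PC or NC rest on those labels, and so does the interaction. If the PC and NC labels had been exchanged, every PC against NC difference would have the other sign. For Serpina3n, ExDSS against PC would then set means of 2369 and 1309 normalised CPM side by side, from overlapping libraries. Ex against NC would set 14.2 beside 12.5. The ExDSS against Ex and PC against NC changes of Serpina3n would have the same sign. An exchange of labels was not tested. Total counts lay between 8813622 and 12308537 per library except in Ex replicate 2, with 1163147, of which 53.5% belonged to the ribosomal precursor Rn45s. Genes with a count numbered 9825 and 11874 in ExDSS, 16374 and 8760 in Ex, 16787 and 16790 in PC, and 16123 and 12683 in NC. Rn45s took 0.874% and 0.665% of counts in ExDSS, 13.1% in Ex replicate 1, 7.35% and 11.1% in PC, and 5.12% and 0.407% in NC, so it was low where Serpina3n was high, and its part in the results was not tested. Over all genes NC replicate 1 lay closer to PC replicate 1 than to NC replicate 2, with a chi-square per gene of 125 against 447. Between the ExDSS libraries it was 634, against 254 from ExDSS replicate 1 to NC replicate 2 and 252 from ExDSS replicate 2 to NC replicate 1. Between the Ex libraries it was 211, against 22 from Ex replicate 1 to PC replicate 2. Between the PC libraries it was 31.6. This chi-square uses counts scaled by library totals alone, so it grows with depth and weighs abundant transcripts most. Pairs of unlike depth or content, such as those with Ex replicate 2, are therefore not on the same scale. In Ex replicate 2, 3 counts equal 4.47 normalised CPM, against 0.199 to 0.411 in the other 7. ExDSS replicate 1 and NC replicate 2 carried pancreatic acinar transcripts, with 9 acinar markers at 235500 and 95340 normalised CPM in sum, against 89.2 to 487 in the other 6 libraries. Epithelial markers were visible in 7 libraries, where 9 of them summed to 3635 to 5807 normalised CPM, and weak in Ex replicate 2, at 59.6. Single markers were uneven, so the sum is no even measure of intestinal identity. Lgals4 had no count in either ExDSS library or NC replicate 2, against 18.5 and 24.1 in PC. Cdx1 had 8.23 and 5.11 in ExDSS and 34.0 and 10.2 in NC, against 116 and 114 in PC. Cdx2 had 53.8 and 6.53 in ExDSS and 36.9 and 92.6 in NC, against 28.3 and 17.3 in PC.

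All 6 genes lie on the plus strand of chromosome 12 within 199.8 kb. The coordinates match build GRCm38. Serpina3f covers 104214544 to 104221129 and the line for Serpina3g covers 104214544 to 104241934, so the Serpina3g line spans the whole of Serpina3f. The GENCODE annotation starts Serpina3g at 104236245, 21.7 kb further downstream. The 3′ ends of both lines, where tags of this library kind fall, lie 20.8 kb apart. Serpina3h follows at 104247896 to 104254405 and is annotated as a transcribed unprocessed pseudogene. Serpina3i lies at 104263122 to 104269365, Serpina3m at 104387164 to 104394257, and Serpina3n, the last of the row, at 104406708 to 104414329. Serpina3j and Serpina3k stand between Serpina3i and Serpina3m.

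**Figure D1:**
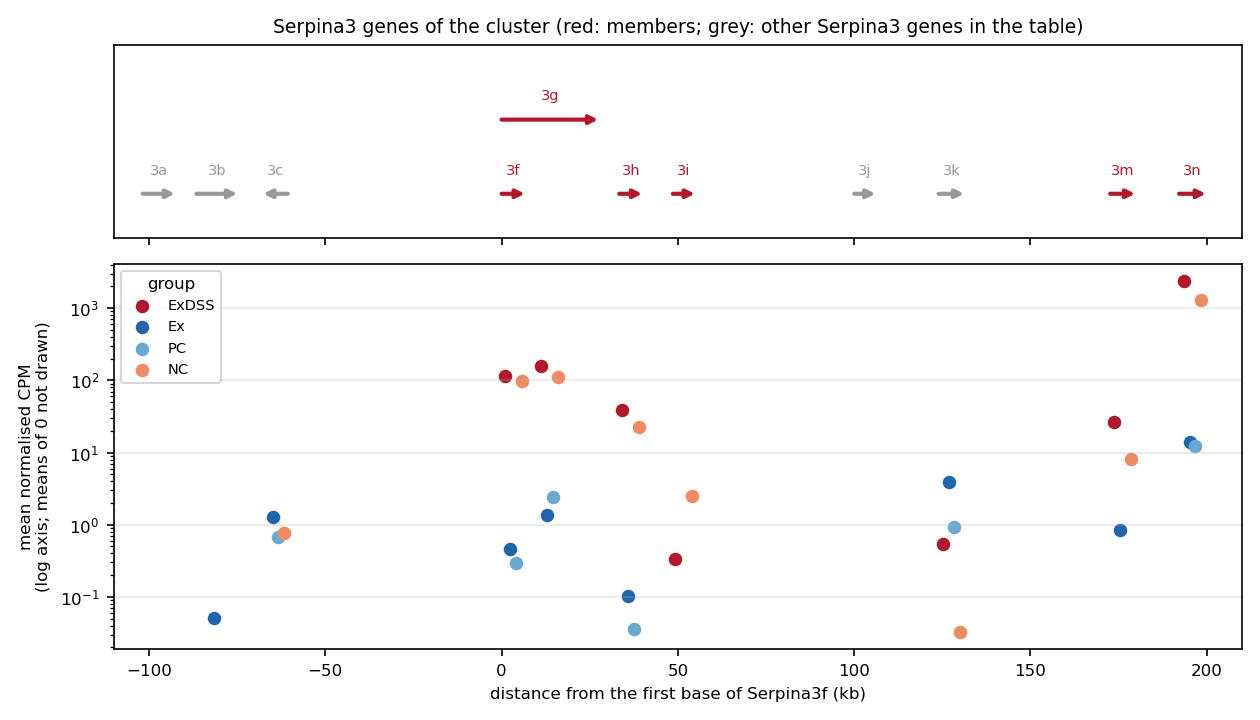
The upper panel maps the Serpina3 genes by distance (kb) from the first base of Serpina3f, with arrows for strand, and the lower panel plots the mean normalised CPM of each group (n = 2, log axis) at each gene. Serpina3n, Serpina3f, Serpina3g and Serpina3h had high means in ExDSS and NC, and Serpina3j had no count.

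The sequences upstream of the gene starts are shown because Serpina3f, Serpina3g, Serpina3i and Serpina3n, although spread over the locus, carry the same 13-base run there. The sequences are from RefSeq (GRCm38.p6, plus strand, 5′ to 3′) and end at the base before the RefSeq start. For Serpina3g this is a RefSeq start near the GENCODE start, and not the start of its counted line at 104214544. Capitals mark the run CAGAGCACAGCTT and any match to TTCNNNGAA, the palindromic core of sites bound by STAT factors.
Serpina3f, chr12:104214294-104214543: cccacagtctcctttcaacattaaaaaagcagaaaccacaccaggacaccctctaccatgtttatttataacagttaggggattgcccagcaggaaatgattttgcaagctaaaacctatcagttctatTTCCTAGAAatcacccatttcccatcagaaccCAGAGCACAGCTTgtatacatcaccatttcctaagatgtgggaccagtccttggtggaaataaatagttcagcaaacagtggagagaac
Serpina3g, chr12:104235897-104236146: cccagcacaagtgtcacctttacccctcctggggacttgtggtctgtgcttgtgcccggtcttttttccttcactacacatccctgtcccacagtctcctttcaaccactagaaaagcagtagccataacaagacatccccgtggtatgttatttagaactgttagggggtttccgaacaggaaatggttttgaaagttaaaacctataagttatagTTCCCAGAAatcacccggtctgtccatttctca
Serpina3i, chr12:104262872-104263121: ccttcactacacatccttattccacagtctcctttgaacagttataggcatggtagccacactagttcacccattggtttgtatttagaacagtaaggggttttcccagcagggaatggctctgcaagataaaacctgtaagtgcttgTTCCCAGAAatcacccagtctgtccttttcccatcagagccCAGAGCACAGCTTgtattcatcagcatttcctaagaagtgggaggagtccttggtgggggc
Serpina3n, chr12:104406458-104406707: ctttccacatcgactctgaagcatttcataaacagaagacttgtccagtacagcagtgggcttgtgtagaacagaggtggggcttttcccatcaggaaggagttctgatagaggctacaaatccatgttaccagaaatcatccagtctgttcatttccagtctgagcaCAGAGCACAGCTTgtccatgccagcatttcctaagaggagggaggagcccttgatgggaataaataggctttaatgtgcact

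The run ended 76 bases before the RefSeq start in Serpina3f, 48 in Serpina3i and 69 in Serpina3n. In Serpina3g it lies just past the RefSeq start, at 104236155 to 104236167, and so outside the stretch printed, 77 bases before the GENCODE start. Of 32851 RefSeq promoter windows of 300 bases, searched on both strands, 7 (0.0213%) held the run, and these belonged to 6 of 27025 genes, namely the 4 members, Serpina3c and Olfr374. The run was sought after the 4 windows had been compared, so this count describes the locus. In pairs the 4 windows were 71.2% to 83.7% identical over 202 to 281 aligned bases, so the likeness was not confined to the run. TTCNNNGAA matched in Serpina3f, Serpina3g and Serpina3i, ending 23, 32 and 32 bases before the run, and had no match in the Serpina3n window. It occurred in 8.3% of all windows. The C/EBP core TTNNGNAA matched in all 4 windows and in 40.7% of all windows, and TATAAA matched in Serpina3f, on the minus strand, and in 13.6% of all windows. Serpina3h and Serpina3m had no entry in the promoter table. A match is a description of these letters and not of binding.

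Serpina3n, the inhibitor of granzyme B and neutrophil elastase, held most of the counts of the 6 genes in every library. It had 1632 and 3106 normalised CPM in the libraries labelled ExDSS, 13.5 and 14.9 in Ex, 13.4 and 11.5 in PC, and 633 and 1985 in NC. ExDSS and NC libraries overlapped with each other and lay far above all Ex and PC libraries. The group means were 2369 ± 1042 in ExDSS, 14.2 ± 0.997 in Ex, 12.5 ± 1.30 in PC and 1309 ± 956 in NC (SD, n = 2 each). The small difference between Ex and PC turned round with the scaling. With CPM of total counts Serpina3n averaged 11.8 in Ex and 16.1 in PC. These are levels in bulk tissue, in which fewer cells of a type and less RNA per cell cannot be told apart.

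Serpina3f had 175 and 57.2 normalised CPM in ExDSS, 0.919 and 0 in Ex, 0.364 and 0.235 in PC, and 51.5 and 147 in NC. The Ex and PC values rest on 9, 0, 5 and 3 counts, so no order between those groups could be read. Serpina3g, the cathepsin inhibitor, had 280 and 40.5 normalised CPM in ExDSS, 1.23 and 1.49 in Ex, 1.82 and 2.98 in PC, and 55.5 and 168 in NC. For both genes the higher ExDSS library was replicate 1 and the higher NC library was replicate 2, the libraries with acinar transcripts. Serpina3n was instead higher in ExDSS replicate 2. Group means of Serpina3f were 116 ± 83.1, 0.460 ± 0.650, 0.299 ± 0.0906 and 99.1 ± 67.4 normalised CPM in ExDSS, Ex, PC and NC (SD, n = 2 each). Those of Serpina3g were 160 ± 169, 1.36 ± 0.186, 2.40 ± 0.823 and 112 ± 79.9. The Ex replicate 2 value of Serpina3g is 1 count. The lines overlap in the genome, so reads shared between Serpina3f and Serpina3g cannot be assigned.

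Serpina3h, the annotated pseudogene, had 44.3 and 34.0 normalised CPM in ExDSS, 0.204 and 0 in Ex, 0.0727 and 0 in PC, and 5.24 and 39.6 in NC. It followed the pattern of Serpina3f and Serpina3g at a lower level, with 3 counts in all over the Ex and PC libraries. Its GENCODE transcript is 92.6% identical to that of Serpina3f and 93.7% identical to that of Serpina3i, so reads could be placed on the wrong copy. That GENCODE transcript ends 736 bases short of the 3′ end of the counted line, so the likeness of the region where its tags fall was not tested. For the other members, the 50-base words in the last 500 GENCODE transcript bases that were shared with another Serpina3 transcript numbered 13 of 451 for Serpina3f, 11 for Serpina3g, 2 for Serpina3i, and 0 for Serpina3m and Serpina3n.

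Serpina3m and Serpina3i departed from that pattern. Serpina3m had 0 and 53.8 normalised CPM in ExDSS, 0.204 and 1.49 in Ex, 0 and 0 in PC, and 5.83 and 10.6 in NC. ExDSS replicate 1 had no count, like both PC libraries (3 counts would be 0.411), and ExDSS replicate 2 had the highest level of all. The Ex values are 2 counts and 1 count. Serpina3i had 3 and 3 counts in ExDSS, 0 and 0 in Ex, 0 and 0 in PC, and 71 and 3 in NC, the largest of which was 4.71 normalised CPM. It did not pass the filter on low counts and was the only member of the 6 left out of the fits, since 5 passed.

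**Figure D2:**
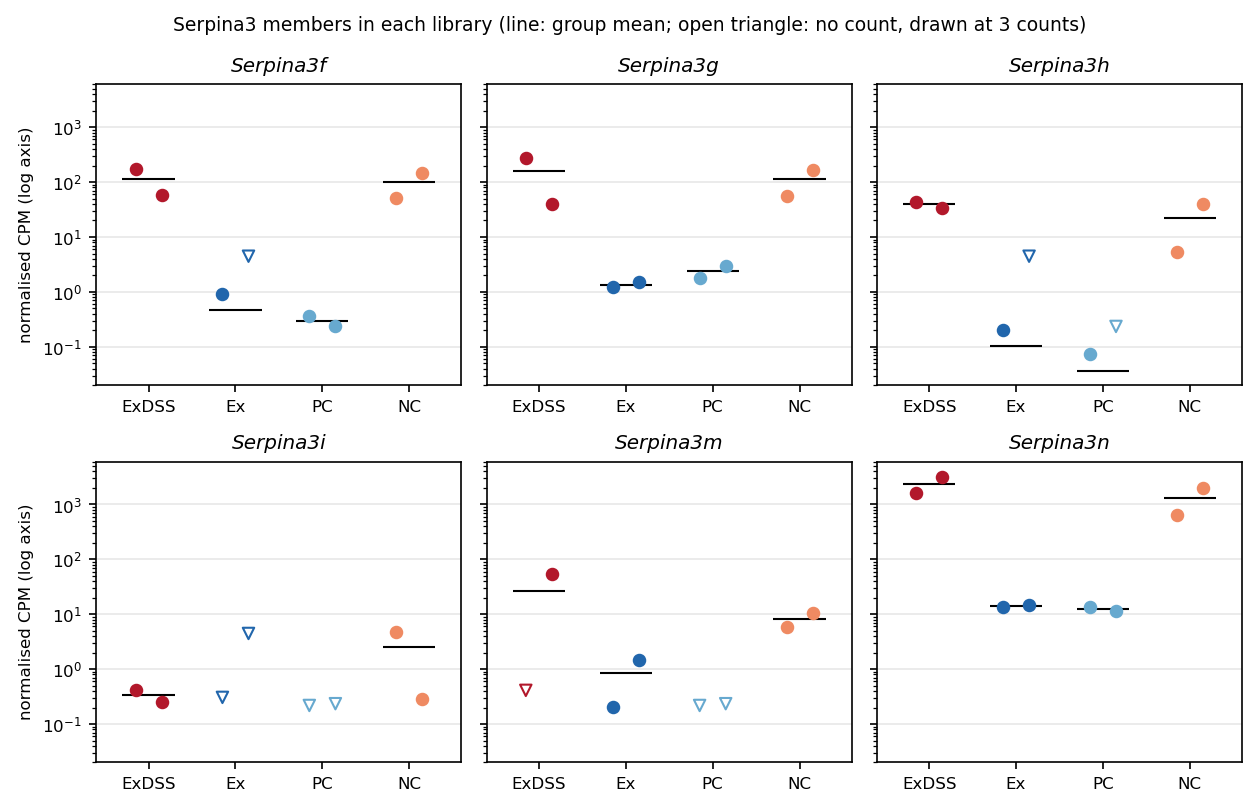
Normalised CPM of each member in each library on a log axis, by group, with the group mean as a line and an open triangle at the level of 3 counts where a library had none. Serpina3n lay between 633 and 3106 in the ExDSS and NC libraries and between 11.5 and 14.9 in the Ex and PC libraries, and Serpina3m had no count in ExDSS replicate 1.

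Between the libraries labelled ExDSS and PC, which ask what exosome pretreatment did before DSS, Serpina3n, Serpina3f, Serpina3g and Serpina3h were all higher in ExDSS. The ratio of pooled counts, each scaled by library size, was 204 for Serpina3n (95% counting interval 183 to 228), 337 for Serpina3f (171 to 782) and 55.2 for Serpina3g (43.0 to 72.0). For Serpina3h it was 1000 (180 to 39700), against 1 count in PC. Serpina3m was at least 119-fold higher in the ExDSS mean, a lower bound against 3 counts per library that rests on replicate 2 alone, and its groups overlapped. Serpina3i gave no fold because both groups were at or under 3 counts per library. These intervals and bounds cover counting error only. Both ExDSS libraries exceeded both PC libraries in 4 of 5 fitted members and in 18.9% of all 14567 genes fitted, and the reverse held for 0 of 5 members and 45.4% of all genes. The contrast took part in the choice of the genes, so nothing is read from that share. The fitted log2 fold change was 7.57 for Serpina3n and 6.05 for Serpina3g, against a median of -0.51 over all genes. Without ExDSS replicate 1, Serpina3g had 4.06. The edgeR quasi-likelihood test called 0 genes (0.0%) at an adjusted p under 0.05, members included, and 2763 at an unadjusted p under 0.05. It called 5 without Ex replicate 1 and 6 without Ex replicate 2, DESeq2 called 1488 and limma-voom 1118.

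Between the libraries labelled ExDSS and Ex, both from exosome-fed mice with and without DSS, the same 4 genes were higher in ExDSS. The ratio of pooled counts was 188 for Serpina3n (159 to 223), 118 for Serpina3f (62.2 to 259), 106 for Serpina3g (61.6 to 199) and 198 for Serpina3h (54.7 to 1640, against 2 counts in Ex). For Serpina3m it was 116 (39.7 to 566, against 3 counts in Ex), with overlapping groups. Without ExDSS replicate 2 the fitted log2 fold change of Serpina3m was -5.40, against 5.53 with it. Without Ex replicate 2, the shallow library, the fitted log2 fold change was 7.48 for Serpina3n and 7.09 for Serpina3g, against 7.39 and 6.92 with it. Other libraries weighed more. Without ExDSS replicate 1 Serpina3g had 4.95 and Serpina3f 6.32, against 6.92 and 7.35. Without Ex replicate 1 the fitted values of Serpina3f and Serpina3h were 13.28 and 11.69, against a lone library with no count of either, and depend on the prior count. Both ExDSS libraries exceeded both Ex libraries in 4 of 5 fitted members and in 17.0% of all genes, and the reverse held for 0 members and likewise 17.0% of all genes. edgeR called 0 genes (0.0%), with 2881 at an unadjusted p under 0.05. It called 1883 without Ex replicate 1, which leaves the shallow library alone, and 7 without PC replicate 1 and 7 without PC replicate 2. DESeq2 called 2005 and limma-voom 421.

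Between the libraries labelled PC and NC, the comparison of DSS with no DSS in saline-fed mice, all 6 genes were lower in PC. Pooled counts were 95.1-fold lower for Serpina3n (85.3 to 106), 300-fold lower for Serpina3f (152 to 696), 42.8-fold lower for Serpina3g (33.4 to 55.9) and 513-fold lower for Serpina3h (91.6 to 20300, from 1 count in PC). Serpina3m was at least 36.2-fold lower and Serpina3i at least 11.0-fold lower in PC, where neither had a count. The Serpina3i bound rests on NC replicate 1, which held 71 of the 74 counts in NC. Both PC libraries lay below both NC libraries in 5 of 5 fitted members and in 23.6% of all genes, and the reverse held for 0 members and 31.0% of all genes. The fitted log2 fold change of Serpina3n was -6.71, and -5.66 without NC replicate 2. Without that library Serpina3h had -6.73, against -8.83 with it. edgeR called 0 genes (0.0%), with 363 at an unadjusted p under 0.05. It called 3 without Ex replicate 1 and 4 without Ex replicate 2, DESeq2 called 83 and limma-voom 2.

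Between the libraries labelled Ex and NC, exosomes against saline with no DSS in either, the same genes were lower in Ex. Pooled counts were 87.5-fold lower for Serpina3n (74.2 to 104), 105-fold lower for Serpina3f (55.4 to 231), 82.0-fold lower for Serpina3g (47.9 to 154) and 101-fold lower for Serpina3h (27.9 to 839, from 2 counts). Serpina3m was 27.1-fold lower (9.15 to 133, from 3 counts) and Serpina3i at least 1.05-fold lower. Both Ex libraries lay below both NC libraries in 5 of 5 fitted members and in 22.9% of all genes, and the reverse held for 0 members and 11.1% of all genes. Without Ex replicate 2 the fitted log2 fold change of Serpina3n was -6.56, against -6.53 with it. Without NC replicate 2 it was -5.51, and that of Serpina3g was -5.41 against -6.41, that of Serpina3f -6.23 against -7.13, and that of Serpina3h -4.86 against -6.93. edgeR called 0 genes (0.0%), with 774 at an unadjusted p under 0.05. It called 1596 without Ex replicate 1, DESeq2 called 337 and limma-voom 0. The 4 comparisons share libraries, since each group takes part in 2 of them, so their likeness is no independent evidence.

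The difference between the ExDSS against Ex change and the PC against NC change, the interaction, asks whether DSS was followed by the same shift with and without exosomes. Serpina3n, Serpina3f, Serpina3g and Serpina3h had opposite signs in the 2 comparisons, higher in ExDSS than in Ex and lower in PC than in NC. The opposite signs rest on the PC and NC labels and would be lost if those had been exchanged. edgeR called 42 of 14567 genes (0.288%), 38 positive and 4 negative, and 4 of the 5 fitted members were among them. The members had been chosen with these differences known, so nothing is read from that count. The number of genes called depended on single libraries. It was 1663 without Ex replicate 1, 7 without Ex replicate 2, 14 and 23 without ExDSS replicates 1 and 2, 1 and 29 without PC replicates 1 and 2, and 0 without NC replicate 1 or NC replicate 2, with 0 to 4 members among the calls.

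The make-up of the 6 genes' counts differed between libraries more than the overall pattern shows. These are shares of tag counts and not of transcript length. Serpina3n made up 76.6% (95% exact binomial interval 75.9 to 77.2) of 15540 counts in ExDSS replicate 1 and 94.4% (94.1 to 94.6) of 39304 in replicate 2. In NC it made up 83.7% (83.1 to 84.4) of 11392 and 84.4% (84.0 to 84.9) of 24665. The NC libraries lay between the 2 ExDSS libraries. These intervals cover counting error only and leave out the variation between libraries, so no difference between groups is read from them. In Ex the share was 84.1% (77.4 to 89.4) of 157 counts and 83.3% (51.6 to 97.9) of 12, and in PC 85.6% (80.2 to 90.0) of 215 and 78.2% (71.6 to 83.9) of 188.

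The balance of Serpina3f and Serpina3g also moved. Serpina3f gave 38.4% (36.8 to 40.1) and 58.6% (55.7 to 61.4) of the counts of both in ExDSS, and 48.1% (45.7 to 50.6) and 46.6% (44.8 to 48.3) in NC. In PC it gave 16.7% (5.64 to 34.7) and 7.32% (1.54 to 19.9), below every ExDSS and NC library, although on 5 of 30 and 3 of 41 counts. In Ex replicate 1 it gave 42.9% (21.8 to 66.0), and in Ex replicate 2 the only count was of Serpina3g. Serpina3m gave 0% of the counts of all 6 members in ExDSS replicate 1, where a count of 0 allows up to 0.0237%, and 1.63% in replicate 2.

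**Figure D3:**
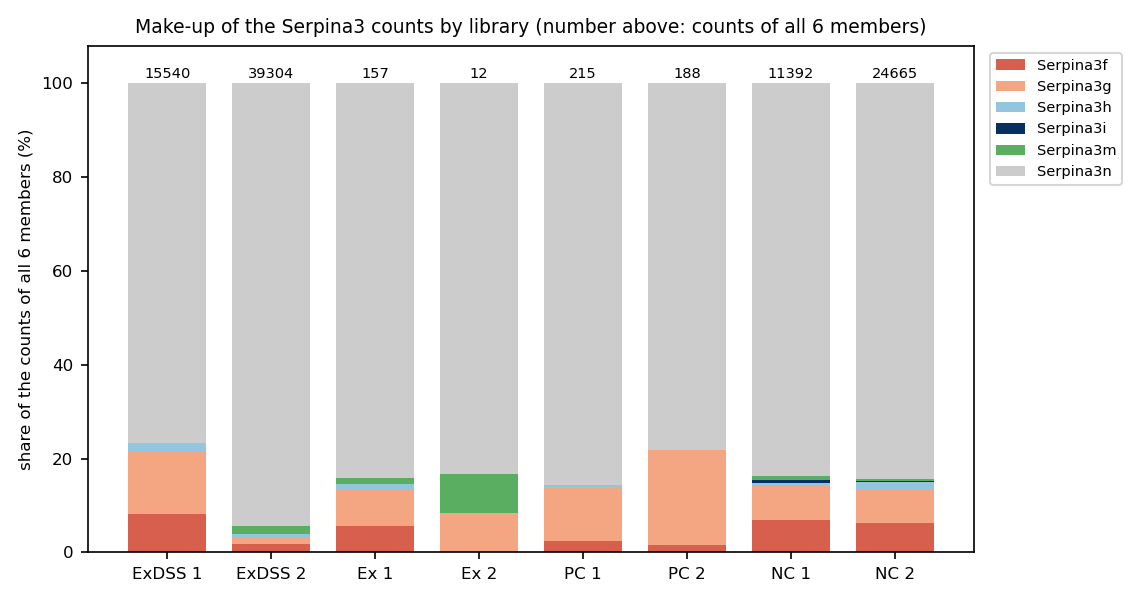
Stacked bars give each member's share (%) of the counts of all 6 members in each library, with the total count above each bar. Serpina3n took 76.6% in ExDSS replicate 1 and 94.4% in ExDSS replicate 2, and Ex replicate 2 holds only 12 counts.

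The other serpin genes of the same chromosome 12 region, which include the alpha-1-antitrypsin copies Serpina1a to Serpina1e and the remaining Serpina3 genes, stood at low levels. Of 19 listed genes, 18 were in the table, 5 of these had no count and 6 passed the filter. Their summed level was 0.274 and 1.09 normalised CPM in ExDSS, 9.91 and 14.9 in Ex, 2.54 and 7.92 in PC, and 4.71 and 16.9 in NC. It was lower in both ExDSS libraries than in the other 6. Serpina3k, which lies between Serpina3i and Serpina3m, had 0 and 1.09 in ExDSS, 1.74 and 5.96 in Ex, 0.291 and 1.57 in PC, and 0.0663 and 0 in NC. Of the 6 genes fitted, 0 were called in any of the 4 comparisons or in the interaction. Serpina10 and Serpina1c, next by p, reached at most 4.29 and 6.96 normalised CPM, both in NC replicate 2. Serpina1b, at 0 in both ExDSS libraries, was at least 3.41-fold lower in ExDSS than in PC, and Serpina3c at least 3.85-fold lower in ExDSS than in Ex.

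Other antiproteases, the proteases that serpins act on, and upstream signals were read from 4 further lists. edgeR called 0 of their genes in the 4 comparisons between groups. In the interaction it called 1 of 26 other antiproteases, 0 of 8 leukocyte proteases, 0 of 13 cathepsins and 2 of 29 cytokine and transcription factor genes. Among antiproteases the call was Stfa2l1, a stefin-type inhibitor of cysteine proteases, with 15.8 and 27.2 normalised CPM in ExDSS, 0 and 0 in Ex, 0 and 0 in PC, and 13.5 and 21.4 in NC. It was at least 94.8-fold higher in ExDSS than in PC and at least 77.1-fold lower in PC than in NC, and its interaction had an edgeR adjusted p of 0.0474. Timp1, the metalloproteinase inhibitor, had 42.2 and 66.7 in ExDSS, 2.45 and 0 in Ex, 2.18 and 3.06 in PC, and 80.8 and 38.3 in NC, with an edgeR adjusted p of 0.0891 in the interaction. Serpine2, a serpin against thrombin and plasminogen activators, had 111.8 and 79.6 in ExDSS, 15.01 and 1.49 in Ex, 16.3 and 15.3 in PC, and 162.2 and 213.8 in NC. Stfa2, another stefin, had 2.19 and 6.45 in ExDSS, 0 and 0 in Ex, 0 and 0 in PC, and 0.663 and 0.191 in NC. The median log2 fold change of the 26 was 0.33 in ExDSS against PC and -0.75 in PC against NC, beside -0.51 and 0.10 over all genes. That of the 5 fitted members was 8.54 and -8.31, or 7.57 and -6.71 with Serpina3m at its bound.

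Tags of leukocyte serine proteases were few. The neutrophil genes Elane and Ctsg had 0 counts in all 8 libraries, where 3 counts equal 0.199 to 4.47 normalised CPM. Gzmb, for granzyme B, had 0 and 0 normalised CPM in ExDSS, 0 and 0 in Ex, 0.364 and 0.392 in PC, and 3.25 and 0 in NC. Gzma, for granzyme A, had 24.7 and 0 in ExDSS, 0.613 and 0 in Ex, 0.291 and 0.314 in PC, and 12.1 and 17.4 in NC. Mcpt2, a mast cell protease of the mucosa, had 21.7 and 26.5 in ExDSS, 0.102 and 0 in Ex, 0.872 and 1.33 in PC, and 9.15 and 28.1 in NC. The ExDSS and NC libraries of Mcpt2 lay above all Ex and PC libraries, and its edgeR adjusted p in the interaction was 0.122. Mcpt4, a mast cell chymase, had 10.1 and 4.77 in ExDSS, 0.102 and 0 in Ex, 0 and 0.471 in PC, and 0.862 and 6.96 in NC. Prtn3, for proteinase 3, had 13.9 and 0 in ExDSS, 0.817 and 0 in Ex, 0.218 and 0 in PC, and 1.06 and 3.34 in NC. Of 16 listed proteases 8 passed the filter on low counts, among them Cpa3, which is a carboxypeptidase and not a serine protease. Over these 8 the median log2 fold change was 4.23 in ExDSS against PC and -3.77 in PC against NC. Mcpt1, Mcpt4, Gzma and Prtn3 had at most 0.817 normalised CPM in any Ex or PC library. They passed the filter through ExDSS or NC libraries, which partly fixes the sign, so nothing is read from these medians.

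Some cathepsins, which act mainly in lysosomes, were abundant and others were scarce, with Ctsw at most 1.46 normalised CPM, in NC replicate 1. Ctsb had 596 and 789.8 normalised CPM in ExDSS, 129 and 5.96 in Ex, 131.6 and 123 in PC, and 429 and 583 in NC, with an edgeR adjusted p of 0.408 in ExDSS against PC. Ctsa, a carboxypeptidase, had 395.5 and 264 in ExDSS, 41.7 and 7.44 in Ex, 37.1 and 41.4 in PC, and 77.6 and 439 in NC. Its ExDSS and NC libraries lay above all Ex and PC libraries, and its edgeR adjusted p was 0.243 in ExDSS against PC and 0.155 in the interaction. Ctsz had 347 and 159 in ExDSS, 62.2 and 1.49 in Ex, 76.9 and 62.4 in PC, and 100.7 and 391 in NC, and Ctsc 91.5 and 184, 34.9 and 7.44, 49.2 and 47.8, and 154 and 109 in the same groups. Ctsf had 0 and 0.0837 in ExDSS, 7.15 and 0 in Ex, 4.51 and 5.26 in PC, and 4.18 and 21.8 in NC. Ctsl, the other enzyme that Serpina3g is known to bind, had 17.6 and 94.6 in ExDSS, 200.8 and 1.49 in Ex, 96.7 and 124.8 in PC, and 151 and 29.0 in NC, with both ExDSS libraries below both PC libraries and the NC libraries on either side of PC. Ctse had 0 and 0 in ExDSS, 18.6 and 0 in Ex, 14.7 and 24.6 in PC, and 3.45 and 0 in NC, at least 59.3-fold lower in ExDSS than in PC, with an edgeR adjusted p of 0.228. Over the 13 cathepsins the median was 0.71 on the log2 scale in ExDSS against PC and -0.98 in PC against NC.

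Of the upstream genes, Il1b and Il11 were called in the interaction. Il1b had 763 and 463 normalised CPM in ExDSS, 1.84 and 5.96 in Ex, 2.98 and 1.80 in PC, and 733 and 436 in NC (edgeR adjusted p 0.00919). Il11, of the interleukin 6 family, had 94.3 and 109 in ExDSS, 1.12 and 0 in Ex, 0.727 and 0.314 in PC, and 70.2 and 53.5 in NC (edgeR adjusted p 0.0151). Leaving out each library in turn kept the call in 3 of 8 fits for Stfa2l1, 4 of 8 for Il1b and 3 of 8 for Il11, and none of the 3 was called without a PC or an NC library. With total counts alone as the scaling, Il11 and Stfa2l1 were not called, and with upper-quartile factors Stfa2l1 was not. Il6 had 0 and 0.335 in ExDSS, 0 and 0 in Ex, 0.0727 and 0.0785 in PC, and 16.3 and 1.14 in NC. Ifng, for interferon gamma, had no count in the 6 libraries labelled ExDSS, Ex and PC, and 11.1 and 3.91 in NC. Both ExDSS and NC were high in Serpina3n, and of the 2 only NC held more than a trace of Il6 or Ifng tags. The part of these cytokines in the members' levels was not tested. Tnf, for tumour necrosis factor, had 24.8 and 15.5 in ExDSS, 0.511 and 0 in Ex, 0.727 and 0 in PC, and 16.3 and 7.24 in NC, with an edgeR adjusted p of 0.161 in the interaction. Nr3c1, the glucocorticoid receptor gene, had 0.960 and 8.54 in ExDSS, 43.3 and 214 in Ex, 51.0 and 43.9 in PC, and 31.1 and 26.3 in NC, lowest in the ExDSS libraries. Stat3 had 74.6 and 95.9 in ExDSS, 86.5 and 26.8 in Ex, 98.5 and 97.8 in PC, and 143 and 38.2 in NC. Its ExDSS and Ex libraries lay below both PC libraries, and its NC libraries lay on either side of PC. Over the 29 genes fitted the median log2 fold change was 1.11 in ExDSS against PC (1.15 over 28 genes, with those lacking counts in 1 group at their bound and Ifng left out) and -1.42 in PC against NC.

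**Figure D4:**
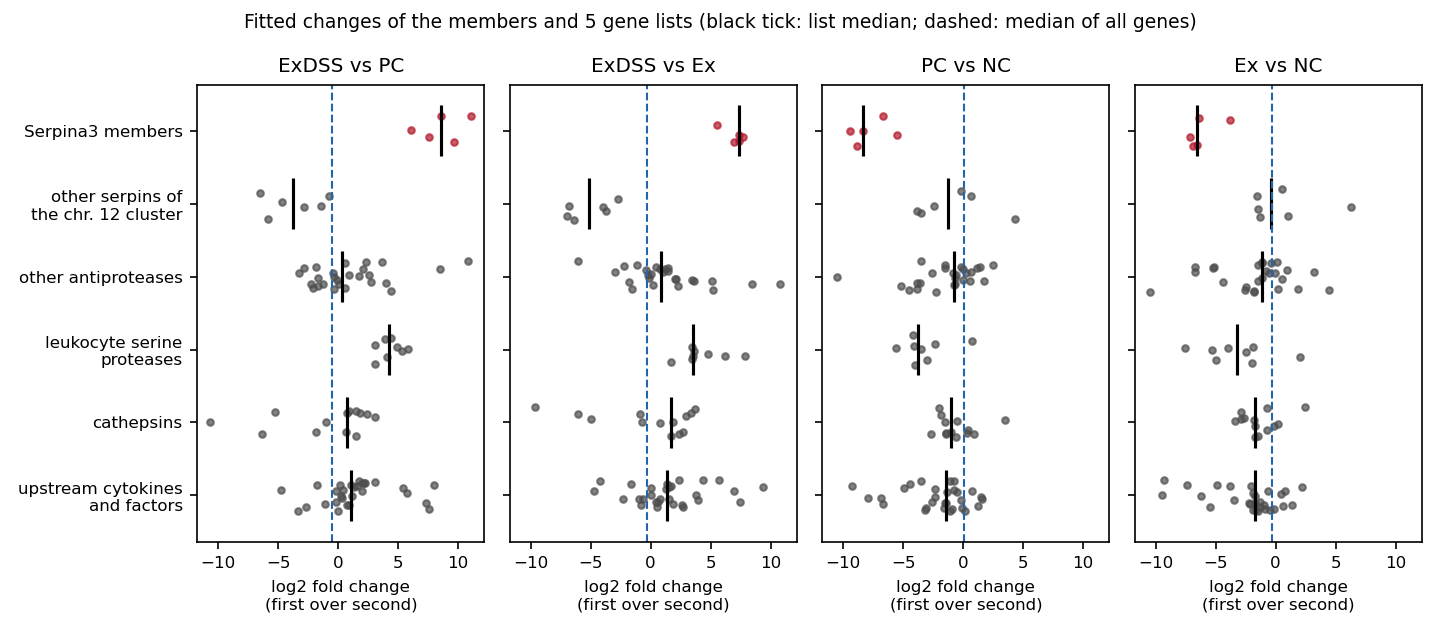
Each point is the fitted log2 fold change (first group over second) of a gene in 1 of 6 lists, with the list median as a black tick and the median of all genes dashed; values of genes without counts in a group depend on the prior count. The members' medians of 8.54 in ExDSS against PC and -8.31 in PC against NC lie beyond the other lists' medians, a difference that the choice of members fixes.

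The genes with the most similar profile were sought by Pearson's r of log2(normalised CPM + 1) over the 8 libraries, which share the same 4 groups and depths. These r are descriptions over few points. For Serpina3n the closest were Stfa2l1 (0.997), the matrix protein gene Tgfbi (0.994), the epidermal growth factor receptor ligand gene Ereg (0.991), Wfdc12 (0.988) and Wfdc21 (0.985). For Serpina3f they were the macrophage scavenger receptor gene Marco (0.997), Chil3 (0.992), Igsf6 (0.989), S100a8 (0.989) and Chil1 (0.985). Marco had 16.2 and 7.54 normalised CPM in ExDSS, 0.715 and 0 in Ex, 0.218 and 0 in PC, and 8.69 and 14.1 in NC.

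For Serpina3g the closest were Ido1 (0.988), an interferon-induced enzyme of tryptophan breakdown, Bmper (0.985), Chil3 (0.982), Wbp1l (0.978) and Igsf6 (0.974). Ido1 had 215.9 and 12.3 normalised CPM in ExDSS, 0.306 and 0 in Ex, 1.02 and 0.471 in PC, and 25.5 and 134 in NC, with the gap between the ExDSS libraries that Serpina3g also had. For Serpina3h they were Ywhah (0.991), Grrp1 (0.989), Igsf6 (0.985), the haem oxygenase gene Hmox1 (0.983) and Pgrmc2 (0.981). For Serpina3m, with its single high library, they were Kcnj15 (0.945), Nlrc5 (0.939), Map3k6 (0.939), Pygl (0.921) and Maea (0.912). Kcnj15 had 0 and 25.3 in ExDSS, 0.715 and 1.49 in Ex, 0.509 and 0.314 in PC, and 2.25 and 19.4 in NC. Between members, r ranged from 0.939 to 0.983 among Serpina3f, Serpina3g, Serpina3h and Serpina3n, and from 0.448 to 0.705 between Serpina3m and the other 4. The closest genes depended on the measure. With Spearman's rho, 0 of 5 were shared for Serpina3f, Serpina3g and Serpina3h, 2 for Serpina3m and 1 for Serpina3n.

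The summed markers of some other cell types moved with the members and those of others did not. Besides the neutrophil sum given above, 8 monocyte and macrophage markers summed to 2416 and 3072 normalised CPM in ExDSS, 267 and 16.4 in Ex, 210 and 299 in PC, and 971 and 2506 in NC. C1qa alone had 1340 and 1540 in ExDSS. In ExDSS against PC the fitted change was positive for 6 of these 8 markers and negative for 2, Cd14 and Lyz2. Of the 8 neutrophil markers 7 were positive and 1, Csf3r, was negative. In PC against NC all 8 of each list were negative. All 8 neutrophil markers had a count in PC replicate 1 and in NC replicate 1, 1 of 8 was at 0 in each other library except Ex replicate 2, and 5 of 8 were at 0 there. Fibroblast markers, 6 in all, summed to 3679 and 3451 in ExDSS, 2615 and 55.1 in Ex, 1544 and 2217 in PC, and 4373 and 3565 in NC. Dcn alone had 2119 and 2238 in ExDSS. In ExDSS against PC the fitted change was positive for 5 fibroblast markers and negative for 1, Col1a2, at -2.23. In PC against NC it was negative for 5 and positive for 1, again Col1a2, at 0.81. The part of these cells in the members' levels was not tested. The 8 hepatocyte markers summed to 53.4 and 23.0 in ExDSS, 215 and 50.6 in Ex, 76.6 and 129 in PC, and 18.0 and 39.5 in NC, with the highest sums in Ex replicate 1 and PC replicate 2. The 6 smooth muscle markers summed to 2353 and 2370 in ExDSS, 4093 and 32.8 in Ex, 3157 and 3681 in PC, and 1717 and 2887 in NC, and the 5 adipocyte markers to 206 and 1901 in ExDSS, 1290 and 5.96 in Ex, 301 and 388 in PC, and 249 and 20.4 in NC. Neither sum followed Serpina3n. Without ExDSS replicate 1 and NC replicate 2, the libraries with acinar transcripts, the fitted log2 fold change of Serpina3n was 7.95 in ExDSS against PC, against 7.57 with them, and -5.66 in PC against NC, against -6.71. Serpina3g had 4.06 and -4.52 without them, against 6.05 and -5.54, Serpina3f 7.51 and -7.36, against 8.54 and -8.31, and Serpina3h 9.42 and -6.74, against 9.63 and -8.83.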

How the data were processed

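Libraries were made from Trizol-isolated total RNA with the QuantSeq 3′ kit, per the labels' protocols. The deposited table holds the authors' whole-number counts per gene, 1 column per library. The submitters' processing notes name Bowtie2, bedtools, edgeR and mm9, without versions or roles. Of 22076 genes matched by name and chromosome to the GENCODE annotation of GRCm38, 22008 (99.69%) overlapped it, so coordinates are given as GRCm38. Tag counts were not divided by length.

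Normalised CPM were computed from the deposited counts, library totals and TMM factors. edgeR 4.0.16 in R 4.3.3 fitted 14567 genes that passed filterByExpr (minimum count 10, total 15) with 1 coefficient per group over 8 libraries (4 residual degrees of freedom, robust quasi-likelihood F test, Benjamini-Hochberg adjustment, threshold 0.05). DESeq2 1.42.0, limma-voom (limma 3.58.1), other scalings, other filters, a replicate block and leaving out libraries were alternatives. The fitting code was checked on simulated counts. It recovered large changes at a small spread and none at the spread estimated from these data. An absence of calls is therefore no evidence that groups did not differ. Count ratios carry exact conditional binomial intervals (SciPy 1.17.1). Libraries within a group are taken as replicates as labelled, and p-values measure only the spread between these libraries. The genes named outside the members are the 3 of smallest unadjusted p per list and comparison and the 5 most similar per member with a mean of at least 5 normalised CPM. Gzmb, Ctsl, Stat3, Elane and Ctsg were named after their values were seen. The members and lists were chosen with earlier results of these data known. No protein sequence was used here.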

Additional observations from a re-analysis of the deposited data

Results flagged for a closer look

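Serpina3f, Serpina3g, Serpina3h and Serpina3n stood out because both libraries of one comparison moved one way and both of the other moved the opposite way. Serpina3f had a fitted log2 fold change of 7.35 in ExDSS against Ex and -8.31 in PC against NC, Serpina3g 6.92 and -5.54, Serpina3h 7.73 and -8.83, and Serpina3n 7.39 and -6.71. The opposite signs rest on the PC and NC labels. The members were chosen with these values known, so nothing is read from the difference.

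In 3 listed genes the difference between the 2 DSS comparisons passed the test of the interaction (edgeR quasi-likelihood, Benjamini-Hochberg over all genes). The lists were chosen with earlier results of these data known, so these calls are no support for anything. They also rest on the PC and NC labels. The interaction on the log2 scale was 15.38 for Il1b (adjusted p 0.00919), with -7.93 in PC against NC, and 13.78 for Il11 (adjusted p 0.0151), with -6.86. For Stfa2l1 it was 21.26 (adjusted p 0.0474), with -10.48. Stfa2l1 had no count in Ex or PC, so its fitted values depend on the prior count and are no bounds, and it passed the filter through ExDSS and NC alone. Of these and the other 4 marker genes called in the interaction, 0 of 7 were called without PC replicate 1, NC replicate 1 or NC replicate 2, 1 without PC replicate 2, 3 with total counts alone and 6 with upper-quartile factors. The calls of Il11 and Stfa2l1 were lost with total counts alone.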

How the results depend on the processing

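Of 425 fold changes of the 5 fitted members under 17 alternatives, 423 kept the sign of the reported value and 77 moved by more than the replicate spread. Both values that lost the sign were Serpina3m without ExDSS replicate 2, at 0.0 in ExDSS against PC and -5.40 in ExDSS against Ex. Serpina3n ranged over 7.02 to 7.95 in ExDSS against PC, 6.64 to 7.80 in ExDSS against Ex, -7.31 to -5.66 in PC against NC and -7.23 to -5.51 in Ex against NC. The other members ranged more widely. Serpina3f ran from 6.32 to 13.28 and Serpina3g from 4.95 to 7.74 in ExDSS against Ex, Serpina3h from -10.81 to -4.76 in Ex against NC, and Serpina3m from 0.0 to 24.84 in ExDSS against PC. CPM of total counts moved 4 of 24 group levels by more than the replicate spread: 0.390 for Serpina3f and 16.1 for Serpina3n in PC, and 1.11 for Serpina3g and 11.8 for Serpina3n in Ex.

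Counts of genes called depended on the tool. For ExDSS against PC, ExDSS against Ex, PC against NC, Ex against NC and the interaction, with 0, 0, 0, 0 and 42 calls as reported, there were 132, 223, 45, 55 and 350 without a filter on low counts, and 1488, 2005, 83, 337 and 1616 with DESeq2. limma-voom gave 1118, 421, 2, 0 and 92. The interaction had 67 calls with RLE size factors, 6 with total counts alone and 0 without NC replicate 2 and ExDSS replicate 1 together, where members called numbered 4, 1 and 0. Leaving out each library gave 0 to 6, 0 to 1883, 0 to 4, 0 to 1596 and 0 to 1663. The cause was not tested.

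Replicate numbers did not pair the libraries. Deviations of same-numbered libraries correlated at -0.201 to 0.0543 over 14567 genes. With the replicate block the calls were 41, 28, 0, 0 and 161.

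With 2 libraries per group, 1 of them shallow in Ex with 12 counts of the members, no comparison of Ex with PC was fitted.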
